A study of Mus musculus with 8 samples.

Results

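The genes described are 8 members of the Bcl2 family (Mcl1, Bcl2, Bcl2a1a, Bcl2a1b, Bcl2a1d, Bcl2l1, Bcl2l11 and Bax), taken by name from the 21742 genes counted in all the tables. They were followed in CD45+ immune cells sorted from full-thickness back wounds of C57BL/6 mice (C57BL/6J in the methods), above all in neutrophils. In the diabetic group, mice had received streptozotocin, which destroys insulin-producing beta cells, at 120 mg/kg when 4 weeks old, and the control group was wounded wild-type mice. Each group was sampled on days 1, 3, 5 and 7 after wounding, and each of the 8 conditions was 1 single-cell library made from 5 pooled mice, so the difference between mice within a condition is not measured and p-values rest on the spread between the libraries of different days. The diabetic wounds model insulin loss caused by a toxin, and CD45 is carried by every leukocyte class.

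Bcl2 family proteins decide whether the outer mitochondrial membrane is opened, the step that releases cytochrome c and starts the caspases of intrinsic apoptosis. Mcl1, Bcl2, Bcl-xL (from Bcl2l1) and A1 (from the Bcl2a1 genes) hold the pore-forming effectors Bax and Bak in check, while BH3-only proteins such as Bim (from Bcl2l11) bind and block them. Neutrophils are short-lived and are known to depend on the unstable Mcl1 protein and on A1 rather than on Bcl2, and growth factors such as G-CSF and GM-CSF prolong their life.

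The libraries held 19236522 to 33842509 UMIs (unique molecular identifiers, each standing for 1 captured RNA molecule) from 4059 to 5836 barcodes, and 35158 cells passed the filters on genes detected and mitochondrial reads. The control day 5 library stood apart, since it lost 28.6% of its barcodes, most of them to mitochondrial reads (27.1% of all its barcodes), and its cells had a median of 8234 UMIs against 2575 to 5219 in the other libraries. The control day 7 library lost 1% of its barcodes, and its lowest barcode had 191 genes against 10 to 28 in the other libraries. Barcodes are renumbered within each table, so cells shared between libraries could not be counted. Ptprc, which encodes CD45, had a UMI in 70.8% to 86.1% of the cells of a library. Cells were clustered without the 8 members and without the pathway genes named below, and clusters were named from marker genes, which gave 13826 neutrophil-like, 4779 monocyte-like, 6331 macrophage-like, 2880 dendritic-like, 2445 T cell-like and 550 NK cell-like cells, while 3756 cells of a shallow cluster stayed unnamed. The neutrophil-like cells per library were 2454, 2695, 1928 and 767 on days 1, 3, 5 and 7 in diabetic wounds, and 2651, 2003, 261 and 1067 in control wounds. Immunoglobulin transcripts (Igkc, Ighg2b) stood beside Cxcr2 and Csf3r among the leading genes of the neutrophil-like cluster with the most cells.

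The 3 Bcl2a1 genes described lie on mouse chromosome 9 and are recent copies of each other, so reads from them are hard to tell apart. A further gene, Bcl2a1c, is annotated at chr9:114330135-114330578 in GRCm38 and is not part of the comparisons below. In GRCm38, Bcl2a1a is annotated as a protein-coding gene at chr9:88956900-88962419 on the forward strand, Bcl2a1b at chr9:89199209-89207827 on the forward strand and Bcl2a1d at chr9:88723285-88731914 on the reverse strand. Their transcripts were 97.9% identical between Bcl2a1a and Bcl2a1b, 93.7% between Bcl2a1a and Bcl2a1d and 93.9% between Bcl2a1b and Bcl2a1d. Of the 50-base stretches of each transcript, 67.7% in Bcl2a1a, 57.6% in Bcl2a1b and 79.5% in Bcl2a1d also occurred in another copy. Of the 100-base stretches, 43.5%, 31.1% and 54.7% did. The split of UMIs among the copies is therefore uncertain, and their sum is given as well. In Bcl2a1a, Bcl2a1b and Bcl2a1d, a stretch upstream ends 65, 109 and 65 bases before a start other than the gene starts given above. This stretch is shown as an example in which Bcl2a1a and Bcl2a1b cannot be distinguished while Bcl2a1d can. It lies before the gene starts given above, so it shows the likeness of the genomic copies and not of the transcripts. From RefSeq (GRCm38.p6), it reads as follows at chr9:88956714-88956855 (forward), chr9:89199023-89199164 (forward) and chr9:88731915-88732050 (reverse), 5′ to 3′ on the strand of the gene, and the capitals mark the bases that differ from another copy.
Bcl2a1a: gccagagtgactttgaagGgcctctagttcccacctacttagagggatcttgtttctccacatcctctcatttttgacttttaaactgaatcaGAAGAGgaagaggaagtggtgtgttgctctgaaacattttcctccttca
Bcl2a1b: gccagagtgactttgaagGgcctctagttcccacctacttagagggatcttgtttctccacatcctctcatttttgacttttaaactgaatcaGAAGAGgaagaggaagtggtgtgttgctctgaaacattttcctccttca
Bcl2a1d: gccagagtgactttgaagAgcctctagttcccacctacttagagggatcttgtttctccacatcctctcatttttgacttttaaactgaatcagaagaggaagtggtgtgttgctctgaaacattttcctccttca
Over 142 aligned bases, 0 differed between Bcl2a1a and Bcl2a1b, and 7 differed between either of them and Bcl2a1d, of which 6 are a stretch that Bcl2a1d lacks.

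The other members are single genes in GRCm38. Mcl1 lies at chr3:95658788-95663176, Bcl2 at chr1:106538178-106714274, Bcl2l1 at chr2:152780668-152831728, Bcl2l11 at chr2:128126038-128162547 and Bax at chr7:45461697-45466898, each annotated as protein coding. Levels are given as CPM, the UMIs of the gene per 1000000 UMIs of the cells summed. A level says nothing about the order of different genes, because capture differs between transcripts.

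In neutrophil-like cells, Mcl1 stood at 3061, 2949, 2869 and 2392 CPM on days 1, 3, 5 and 7 in diabetic wounds. In control wounds it stood at 2956, 3824, 2407 and 2009 on the same days. Control day 3 was the highest of the 8 libraries and control day 7 the lowest, and the groups overlapped, with means of 2818 ± 295 (SD, n = 4 days) in diabetic and 2799 ± 786 in control wounds. Bcl2 was barely detected in these cells, at 3.17, 1.44, 3.61 and 3.43 CPM in diabetic wounds and at 2.002, 1.05, 2.07 and 5.68 in control wounds. These levels rest on 2 to 29 UMIs per library, so no difference between the groups was detectable at this depth.

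Bcl2a1a in neutrophil-like cells measured 153, 133, 166 and 115 CPM in diabetic wounds on days 1, 3, 5 and 7. It measured 124, 56.5, 79.8 and 44.6 in control wounds. Diabetic wounds were higher on each of the 4 days, yet the groups overlapped, since control day 1 lay above diabetic day 7. Bcl2a1b measured 174, 177, 211 and 134 in diabetic wounds and 181, 110, 111 and 83.6 in control wounds. For Bcl2a1d the values were 115, 131, 156 and 103 in diabetic wounds and 126, 91.96, 119 and 73.4 in control wounds. Both of these copies were lower in diabetic than in control wounds on day 1 and higher on the other 3 days. Summed over the 3 copies, the level was 443, 440, 532 and 352 CPM in diabetic wounds and 430, 259, 310 and 202 in control wounds, so that control day 1 stood above 1 of the diabetic libraries.

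Bcl2l1, the gene of Bcl-xL, had 223, 220, 228 and 169 CPM in diabetic and 246, 176, 156 and 157 in control wounds. Bcl2l11, which encodes Bim, had 1112, 1404, 1468 and 1067 in diabetic wounds and 1390, 1033, 985 and 700 in control wounds. In control wounds Bcl2l11 was highest on day 1 and lowest on day 7, whereas in diabetic wounds days 3 and 5 were the high ones. Bax, the effector, had 62.0, 139, 152 and 193 CPM in diabetic wounds. In control wounds Bax had 73.9, 123, 216 and 191. In both groups the day 1 library was the lowest for Bax, and the groups overlapped for Bcl2l1, Bcl2l11 and Bax.

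**Figure D1:**
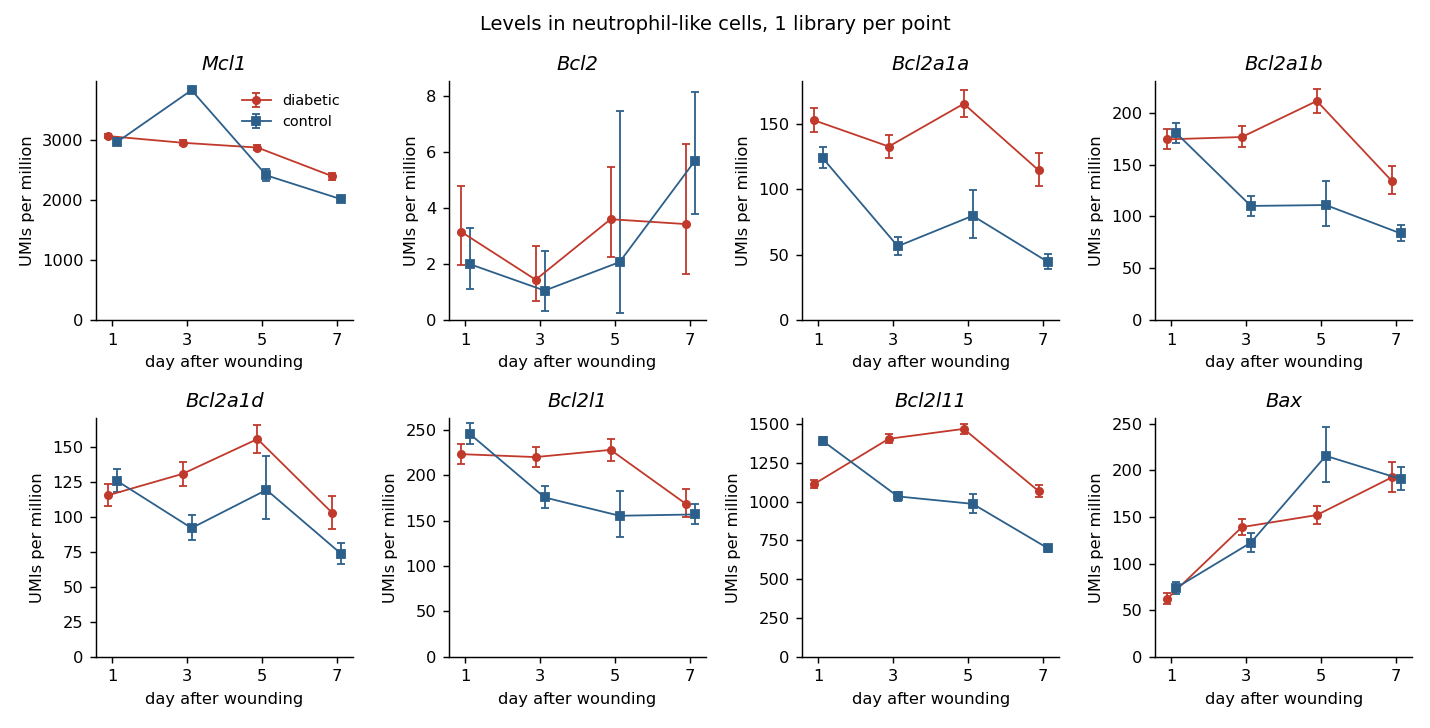
CPM (vertical axis) of the 8 genes in neutrophil-like cells by day after wounding (horizontal axis), with 1 library per point and exact 95% Poisson intervals that cover counting error only. Bcl2a1a lies higher in diabetic (red) than in control wounds (blue) on all 4 days, from 153 against 124 on day 1 to 115 against 44.6 on day 7, while Bax is lowest on day 1 in both groups.

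Mcl1 and Bcl2l11 were each at their highest in neutrophil-like cells in 8 of 8 libraries, when these cells were compared with monocyte-, macrophage-, dendritic- and T cell-like cells. Over the libraries, Mcl1 had a median of 2909 CPM in neutrophil-like cells (2009 to 3824), 1735 in monocyte-like, 1667 in macrophage-like, 1327 in dendritic-like and 828.9 in T cell-like cells. The range in neutrophil-like cells did not overlap that in monocyte-like cells, while that in macrophage-like cells reached up to 2515 and overlapped it, and T cell-like cells lay below all the others. In the 6 libraries with at least 20 NK cell-like cells, Mcl1 had a median of 690. Bcl2l11 had a median of 1089 in neutrophil-like cells (700 to 1468), 604 in monocyte-like, 405 in dendritic-like, 356 in macrophage-like and 312 in T cell-like cells, and every pair of neighbours in this order overlapped. NK cell-like cells stood at 818 for Bcl2l11, within the neutrophil-like range.

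Bcl2 ran in the opposite order. It was highest in T cell-like cells in 8 of 8 libraries among the same 5 classes, with a median of 39.3 CPM (27.8 to 73.5) against 12.6 in dendritic-like, 6.23 in macrophage-like, 4.87 in monocyte-like and 2.62 in neutrophil-like cells. The range of T cell-like cells did not overlap that of dendritic-like cells, whereas the neighbouring ranges below them overlapped. NK cell-like cells had a median of 120 (84.1 to 153), and in macrophage-like cells of control day 1 there were 0 Bcl2 UMIs, where 3 counts would be 7.37 CPM. With each cell thinned to 1000 UMIs, 0.146% of neutrophil-like cells had a Bcl2 UMI (exact 95% interval 0.0878% to 0.228%, 0.651% unthinned at a median of 2469 UMIs) and 3.88% of T cell-like cells did (3.12% to 4.75%, 10.2% unthinned at a median of 3895 UMIs). Shallower cells were left out, 789 neutrophil-like and 148 T cell-like ones. At the same depth Mcl1 had a UMI in 89.6% of neutrophil-like and 48.6% of T cell-like cells.

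The Bcl2a1 copies did not share 1 order over the classes. Bcl2a1a had a median of 119 CPM in neutrophil-like, 66.7 in dendritic-like, 48.3 in T cell-like, 45.6 in monocyte-like and 28.3 in macrophage-like cells, and was highest in neutrophil-like cells in 5 of 8 libraries. Bcl2a1b was also highest there in 5 of 8 libraries, with medians of 154 in neutrophil-like, 116 in T cell-like, 104 in dendritic-like, 77.8 in monocyte-like and 70.7 in macrophage-like cells. Bcl2a1d was highest in neutrophil-like cells in 0 of 8 libraries. Its medians were 244 in dendritic-like, 212 in T cell-like, 117 in neutrophil-like, 115 in monocyte-like and 52.8 in macrophage-like cells, and macrophage-like cells were the lowest in 8 of 8 libraries. Neighbouring ranges overlapped for all 3 copies, except for monocyte- and macrophage-like cells in Bcl2a1d.

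Bcl2l1 was highest in neutrophil-like cells in 6 of 8 libraries, with a median of 198 CPM against 152 in T cell-like, 82.3 in dendritic-like, 77.3 in macrophage-like and 57.1 in monocyte-like cells. The ranges of neutrophil- and T cell-like cells overlapped, and the range of T cell-like cells lay above that of dendritic-like cells. Bax was lowest in neutrophil-like cells in 6 of 8 libraries, with a median of 146 against 193 in T cell-like, 194 in dendritic-like, 239 in macrophage-like and 244 in monocyte-like cells, and all neighbours in this order overlapped.

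**Figure D2:**
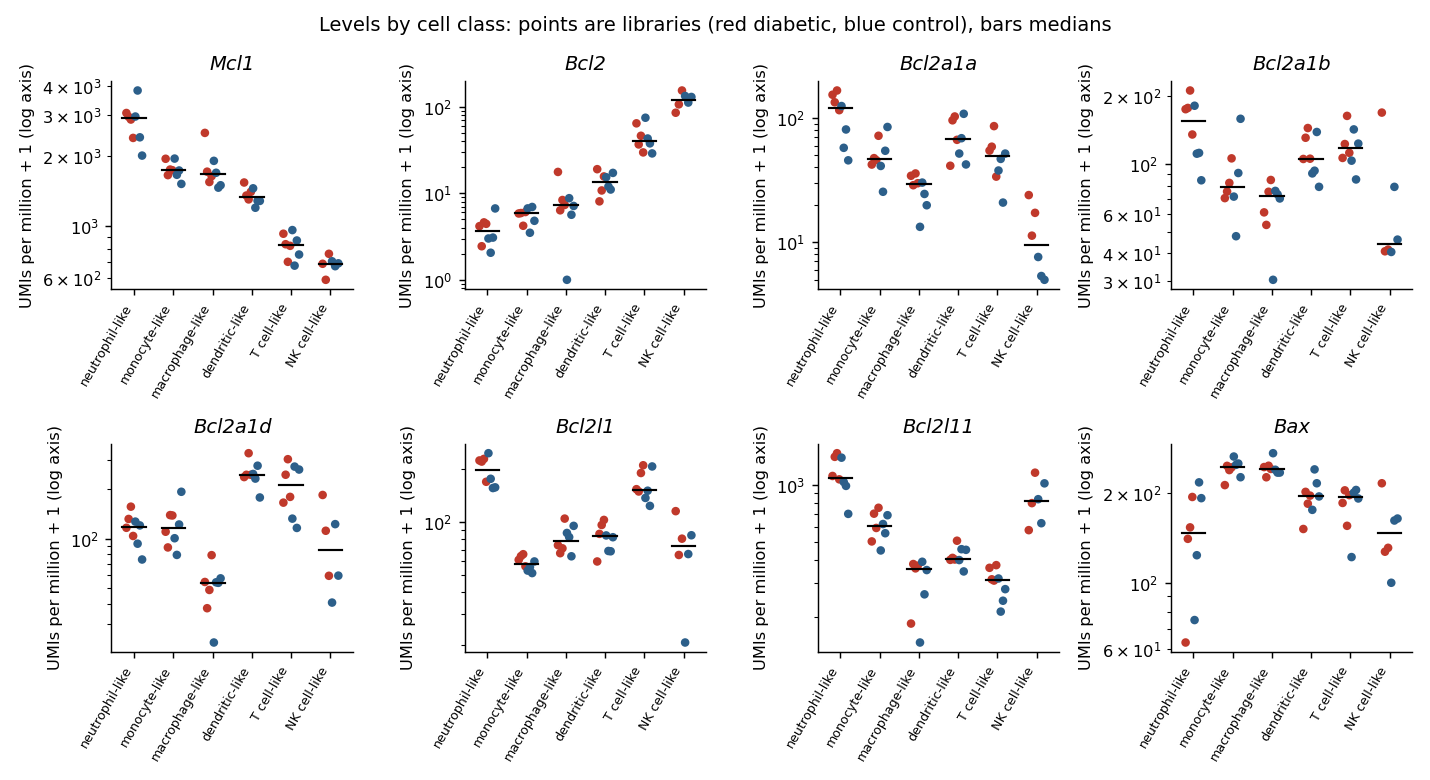
CPM plus 1 (vertical axis, log scale) of each gene by cell class (horizontal axis), with 1 library per point, diabetic in red, control in blue, and the median of the class as a bar. Mcl1 steps down from a median of 2909 in neutrophil-like to 828.9 in T cell-like cells, Bcl2 steps up over the same classes from 2.62 to 39.3, and Bcl2a1d is highest in dendritic-like cells at 244.

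Differences between classes were then tested in the same libraries with edgeR's quasi-likelihood test on the summed UMIs, with the library as a block and Benjamini-Hochberg adjustment over all genes tested. A log2 difference from this fit is relative to the bulk of genes (TMM scaling), and so it differs from the ratio of the levels above. When library totals were used instead, an alternative chosen after seeing the data, the median gene moved by -0.69 to -1.03 on the log2 scale in neutrophil-like cells against the other classes, while under TMM it lay at -0.10 to -0.12. Against monocyte-like cells, 5 of 8 members were higher in neutrophil-like cells and 0 lower, where 55.4% of all 11603 genes tested passed in either direction. Bcl2l1 differed by 2.34 ± 0.19 (SE, log2; adjusted p = 1.7e-07), Bcl2a1a by 1.72 ± 0.33, Bcl2l11 by 1.45 ± 0.25, Bcl2a1b by 1.40 ± 0.31 and Mcl1 by 1.22 ± 0.19 (adjusted p = 0.00012). Bcl2a1d at 0.54 ± 0.25, Bcl2 at -0.19 ± 0.29 and Bax at -0.31 ± 0.13 did not pass. The median over the members was 1.31, against -0.12 over all genes.

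Against macrophage-like cells, 6 of 8 members were higher and 0 lower, where 51.2% of 11755 genes passed. Bcl2l11 differed by 2.63 ± 0.33 (log2, adjusted p = 1.5e-05), Bcl2a1a by 2.57 ± 0.28, Bcl2l1 by 1.997 ± 0.24, Bcl2a1d by 1.86 ± 0.29, Bcl2a1b by 1.81 ± 0.32 and Mcl1 by 1.42 ± 0.21 (adjusted p = 6.8e-05). The median over the members was 1.84, and Bcl2 (-0.60 ± 0.35) and Bax (-0.12 ± 0.14) did not pass. Macrophage-like cells of day 1 were few, with 63 cells in the diabetic and 79 in the control library.

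Against dendritic-like cells, 5 of 8 members were higher and 1 lower, where 60.8% of 11224 genes passed. Bcl2l11 differed by 2.16 ± 0.25 (log2, adjusted p = 4.2e-06), Bcl2l1 by 2.02 ± 0.23, Mcl1 by 1.77 ± 0.22, Bcl2a1a by 1.28 ± 0.31 and Bcl2a1b by 1.13 ± 0.24, whereas Bcl2 differed by -1.45 ± 0.24 (adjusted p = 0.00015). Bcl2a1d at -0.40 ± 0.18 and Bax at 0.20 ± 0.12 did not pass. Against T cell-like cells, 6 of 8 members were higher and 1 lower, where 64.0% of 11235 genes passed. Bcl2l11 differed by 2.88 ± 0.24 (adjusted p = 2.5e-08), Mcl1 by 2.74 ± 0.24, Bcl2a1a by 2.10 ± 0.27, Bcl2a1b by 1.23 ± 0.24, Bcl2l1 by 1.22 ± 0.24 and Bax by 0.54 ± 0.16 (adjusted p = 0.0069), whereas Bcl2 differed by -2.96 ± 0.26 (adjusted p = 5.9e-08). Bcl2a1d, at 0.12 ± 0.25, did not pass.

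The calls of Mcl1, Bcl2l11 and Bcl2a1a held in all 4 contrasts with library totals, where Mcl1 differed by 0.67, 0.68, 1.03 and 1.76 from monocyte-, macrophage-, dendritic- and T cell-like cells. The direction of Bax depended on the scaling. With library totals Bax was lower in neutrophil-like cells than in monocyte-like (-0.86, adjusted p = 0.0031), macrophage-like (-0.84, adjusted p = 0.0053) and dendritic-like cells (-0.53, adjusted p = 0.020), and it was -0.42 against T cell-like cells (adjusted p = 0.059). Bcl2a1d likewise turned to -0.84 against T cell-like cells (adjusted p = 0.0022), and Bcl2a1b and Bcl2l1 no longer passed there, at 0.27 and 0.25.

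Of the other genes of the pathway, the receptors for the survival factors G-CSF and GM-CSF (Csf3r, Csf2ra, Csf2rb and Csf2rb2) were higher in neutrophil-like cells in 3 of 4 against monocyte-like, 4 of 4 against macrophage-like, 2 of 4 against dendritic-like and 4 of 4 against T cell-like cells. Csf3r differed by 4.23, 4.14, 5.48 and 5.66 (log2) in that order, but it is also one of the markers that named the class, so this is no finding. Of the inhibitors Xiap, Birc2, Birc3 and Cflar, 2, 4, 3 and 3 of 4 were higher in the same order. Of all genes, 55.4%, 51.2%, 60.8% and 64.0% passed in either direction. With library totals Xiap no longer passed against macrophage-like cells (0.03, edgeR adjusted p = 0.88). Birc3, the gene of the caspase and TNF pathway inhibitor cIAP2, was higher by 1.84, 1.95, 2.10 and 2.42. Cflar, which blocks caspase-8, did not pass against monocyte-like cells and was higher by 1.12, 1.67 and 2.35 against the other classes. Birc2 was higher against monocyte-like (1.16) and macrophage-like cells (1.33) and lower against dendritic-like (-0.98) and T cell-like cells (-0.71).

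The BH3-only genes other than Bcl2l11 gave 3 higher and 0 lower of 5 tested against monocyte-like cells, 3 and 1 of 5 against macrophage-like, 2 and 1 of 5 against dendritic-like and 4 and 1 of 6 against T cell-like cells. With library totals Bbc3 (-0.39, adjusted p = 0.14), Pmaip1 (0.07, adjusted p = 0.73) and Bmf (0.69, adjusted p = 0.19) no longer passed against T cell-like cells, Bbc3 turned to -0.24 (adjusted p = 0.29) against dendritic-like and Pmaip1 stood at 0.28 (adjusted p = 0.31) against macrophage-like cells, while the 3 calls against monocyte-like cells held. Bid, which links death receptors to mitochondria, was higher by 1.28, 1.49, 2.34 and 2.11 in the 4 contrasts. The apoptosome and caspase genes moved the other way in part, with 3 higher and 4 lower of 9 tested against monocyte-like cells, 1 and 0 of 9 against macrophage-like, 0 and 5 of 9 against dendritic-like and 1 and 2 of 8 against T cell-like cells. Apaf1, the scaffold that cytochrome c assembles, differed by -0.65 against monocyte-like, -0.98 against dendritic-like and -0.53 against T cell-like cells. The executioner caspase gene Casp6 was lower against monocyte-like (-0.96) and dendritic-like cells (-2.09). Among the remaining family members, Bak1, the other effector, was lower against monocyte-like (-0.59) and dendritic-like cells (-0.57), and Bnip3, a mitophagy gene, was higher by 2.36 and 3.03 against dendritic- and T cell-like cells. Large differences were also found for Bcl2l14 (-4.56) and Htra2 (-2.26) against dendritic-like cells, the BH3-only gene Bik (-5.48) against T cell-like cells, and Bcl2l2, the gene of the survival protein Bcl-w, against monocyte-like (-1.93) and macrophage-like cells (-1.53). Bmf, another BH3-only gene, was higher by 1.66 and 1.72 against the latter 2 classes, and the receptor genes Csf2rb (3.66) and Csf2ra (3.43) were far higher than in T cell-like cells. A gene can pass the filter on low counts through the other class alone. The levels of Bik and Bcl2l14 in neutrophil-like cells are not given, so the sizes of their differences are uncertain. Bid, Birc2, Birc3, Cflar and Bak1 are given in contrasts where other genes of the lists changed more, and were chosen for this after their values were seen. With library totals the genes given here with values kept their direction, except for Bbc3 as given above. Xiap also turned, to -0.26 and -0.29 against dendritic- and T cell-like cells.

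In the fits of change over days, which used both groups with the day as a number and the treatment as a term, 6 of 8 members fell in neutrophil-like cells relative to the bulk of genes, and 0 rose. This stands beside 43.2% of 10113 genes that changed in either direction. Bcl2a1a changed by -0.29 ± 0.06 per day on the log2 scale (edgeR adjusted p = 0.0036), which is -1.76 over the 6 days sampled, and Bcl2a1b by -0.27 ± 0.06 per day (adjusted p = 0.0035). Bcl2l1, Bcl2l11 and Mcl1 changed by -0.25 ± 0.05, -0.25 ± 0.06 and -0.25 ± 0.06 (adjusted p = 0.0027, 0.0072 and 0.0054), and Bcl2a1d by -0.22 ± 0.06 (adjusted p = 0.0081). Bax at 0.09 ± 0.05 (adjusted p = 0.14) and Bcl2 at 0.02 ± 0.10 (adjusted p = 0.89) did not pass. The median over the members was -0.25 per day, against 0.01 over all genes.

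These calls depended on the scaling and on the end points. With library totals the median gene moved by 0.17 per day, none of the 6 genes passed (Mcl1 at -0.09, adjusted p = 0.12), and Bax passed instead, rising by 0.25 per day (adjusted p = 0.0016). Bax lay above the median gene and the 6 genes below it under both scalings. Without the day 1 libraries, without the day 7 libraries, and with cells named singly from marker scores, 0 members passed by edgeR, but the calls over all genes fell as well, from 4365 to 1150, 200 and 641.

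**Figure D3:**
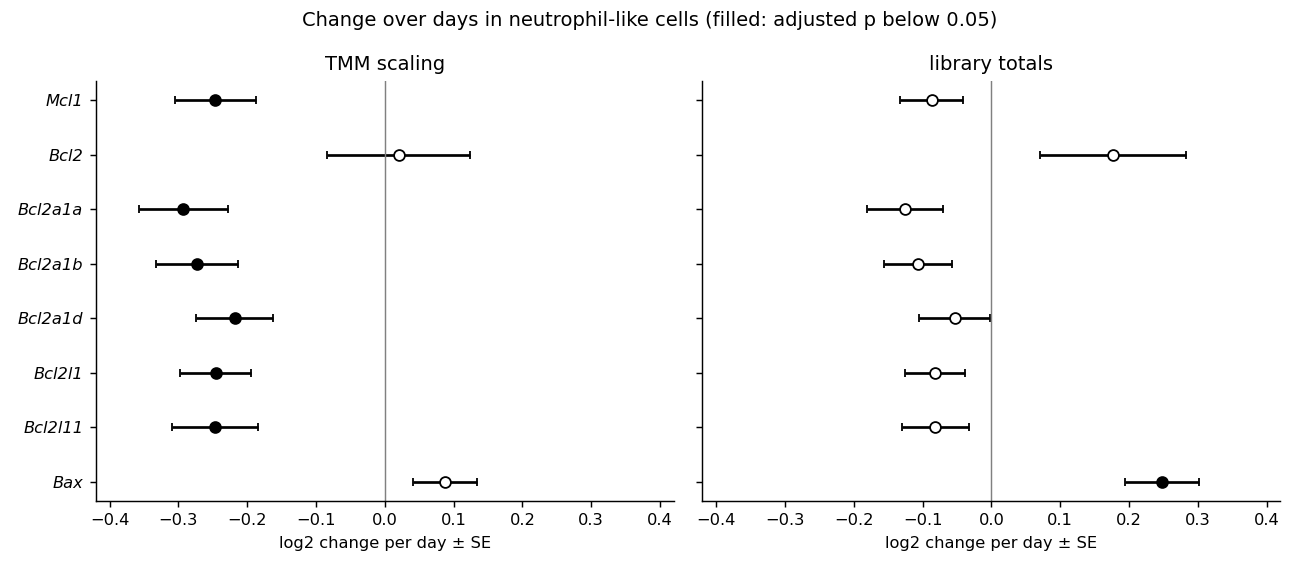
Log2 change per day (horizontal axis) with its standard error for each gene (vertical axis) in neutrophil-like cells, over 8 libraries, under TMM scaling (left) and library totals (right), with filled points for adjusted p below 0.05. The points for Mcl1, the Bcl2a1 copies, Bcl2l1 and Bcl2l11 lie at -0.22 to -0.29 on the left and at -0.05 to -0.13 on the right, and Bax is called only on the right, at 0.25.

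The neutrophil-like class itself changed over the days. The summed level of its 8 markers went from 49560 to 61770 CPM on day 1 to 14730 to 16310 on day 7, whereas the summed level of the 10 macrophage markers in these cells went from 509 to 718 up to 9385 to 11470, and that of the 10 dendritic markers from 778 to 1010 up to 6936 to 9465. The part of this in the change of the members was not tested. The mix of neutrophil-like clusters changed as well. NEU-1-like cells, named from Cxcr2, Csf3r, Il1r2 and Lrg1, are the cluster with immunoglobulin transcripts among its leading genes, and against the other neutrophil-like clusters none of those 4 markers was among its 10 leading genes, which Igkc and Ighg2b headed. They made up 13.0%, 84.7%, 81.6% and 92.6% of them in control wounds on days 1, 3, 5 and 7, and 15.8%, 43.6%, 36.5% and 57.5% in diabetic wounds. NEU-2-like cells, named from Gm5483, Il1f9 and Ccl3, had none of these among their 10 leading genes against the other neutrophil-like clusters either, which Il23a and Tnf headed. They made up 48.7%, 9.74%, 13.4% and 4.97% in control wounds and 29.3%, 36.4%, 49.1% and 39.1% in diabetic wounds. NEU-3-like cells (Ngp, Retnlg and Lcn2) numbered 924, 329, 151 and 2 in diabetic and 663, 33, 2 and 1 in control wounds. On day 1 their Bax stood at 36.7 CPM in diabetic and 41.0 in control wounds. In NEU-1-like cells it was 66.4 and 60.2, and in NEU-2-like cells 90.8 and 87.0. The part of this cluster in the levels of Bax was not tested.

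Within NEU-1-like cells alone, a fit added after seeing the data, 5 members fell and Bax rose, where 34.9% of 7945 genes changed. Mcl1 changed by -0.23 ± 0.05 per day (adjusted p = 0.0022), Bcl2l11 by -0.15 ± 0.05 (adjusted p = 0.018), Bcl2a1b by -0.15 ± 0.04 (adjusted p = 0.016) and Bax by 0.12 ± 0.04 (adjusted p = 0.037). Bcl2a1d and Bcl2l1 each changed by -0.12, and Bcl2a1a at -0.13 did not pass (adjusted p = 0.055). Within NEU-2-like cells 6 members fell, where 32.1% of 6864 genes changed, led by Bcl2a1a at -0.28 ± 0.08 (adjusted p = 0.012) and Bcl2l1 at -0.24 ± 0.07 (adjusted p = 0.014), and Bax at 0.08 ± 0.06 did not pass. Bcl2 was too low to be tested in either cluster. With library totals 2 members passed in NEU-1-like cells (Mcl1, -0.12, and Bax, 0.23 per day) and 1 in NEU-2-like cells (Bax, 0.23 per day). With each cell thinned to 1000 UMIs 1 and 0 members passed, where 12.9% and 8.34% of all genes did. Without the day 1 or the day 7 libraries 0 passed in either cluster, where the share of all genes called fell to 6.38% and 2.24% in NEU-1-like and to 0.77% and 0.185% in NEU-2-like cells. The markers moved within the clusters too. In NEU-1-like cells the summed neutrophil markers stood at 49510 and 51703 CPM on day 1 and at 19434 and 15714 on day 7 (diabetic and control), and the macrophage markers at 483 and 501 and then at 9991 and 10916. In NEU-2-like cells the neutrophil markers stood at 32571 and 40926 on day 1 and at 13417 and 8054 on day 7, and the macrophage markers at 482 and 545 and then at 7890 and 11539. Their part in these changes was not tested.

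The genes of the upstream survival signal fell over the days in neutrophil-like cells as well. All 4 receptor genes fell, Csf3r by 0.26 and Csf2ra by 0.24 per day on the log2 scale. Of all genes, 43.2% changed in either direction. Csf3r is also among the markers that named the class and the NEU-1-like cluster. The summed neutrophil markers fell over the days as well, so the fall of Csf3r is no separate finding. Of the inhibitors 3 of 4 fell, among them Birc3 (-0.29, adjusted p = 0.0011) and Cflar (-0.27, adjusted p = 0.0060). In contrast, 1 of 5 BH3-only genes (Bbc3, -0.16) and 1 of 5 other family genes (Bcl2l13, -0.22) changed, both of them falling. With library totals Birc3 still passed, at -0.12 (adjusted p = 0.023), whereas the receptor genes, Cflar, Xiap, Bbc3 and Bcl2l13 did not, and Xiap and Csf2rb had a slope above 0. In NEU-1-like cells Csf3r (-0.31), Birc3 (-0.26), Csf2ra (-0.22), Cflar (-0.13) and Csf2rb (-0.13) fell. In NEU-2-like cells 6 of these genes fell, with Csf3r at -0.25 and Birc3 at -0.25, while Casp6, an executioner caspase gene, rose by 0.27 per day. With library totals Csf3r (-0.20), Birc3 (-0.14) and Csf2ra (-0.11) still passed in NEU-1-like cells and Cflar and Csf2rb did not, and in NEU-2-like cells none of the 6 passed (Csf3r at -0.11, adjusted p = 0.14, and Birc3 at -0.10, adjusted p = 0.12), whereas Casp6 did (0.41).

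Over all cells of a library the level also moves with the share of each class, and fewer cells of a type and less RNA per cell cannot be told apart there. Neutrophil-like cells held 48.8%, 43.4%, 45.4% and 21.2% of the Mcl1 UMIs of diabetic libraries on days 1, 3, 5 and 7, and 51.4%, 45.5%, 5.61% and 21.4% of those of control libraries. Mcl1 over all cells was 2287, 1931, 1797 and 1528 CPM in diabetic and 2289, 1963, 1405 and 1455 in control wounds. Day 1 was the highest in both groups. By edgeR, 2 of 8 members fell over the days and 0 rose, where 10.3% of 13332 genes changed. These were Bcl2a1a (-0.24 ± 0.06 per day, adjusted p = 0.038) and Mcl1 (-0.19 ± 0.04, adjusted p = 0.030). With library totals Mcl1 passed at -0.11 (adjusted p = 0.048) and Bcl2a1a did not (-0.16, adjusted p = 0.053), and without the day 1 or the day 7 libraries neither passed, where 0 of 13818 and 1 of 13281 genes did, so these fits say nothing about the members alone. Of the pathway lists, Csf3r (-0.35), Birc3 (-0.21), Cflar (-0.21), Csf2ra (-0.21) and Bbc3 (-0.20), the gene of the BH3-only protein Puma, also fell over all cells. With library totals Birc3 (-0.14) and Bbc3 (-0.12) still passed, and Csf3r (-0.27, adjusted p = 0.056), Cflar (-0.13, adjusted p = 0.064) and Csf2ra (-0.13, adjusted p = 0.052) did not.

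The comparison of diabetic with control wounds addressed whether the survival genes stand at another level in neutrophils of diabetic wounds. Over the 4 days, with the day as a block, Bcl2a1a was higher in diabetic wounds by 1.11 ± 0.25 on the log2 scale in neutrophil-like cells (2.16-fold, higher on 4 of 4 days), with means of 142 ± 22.4 (SD, n = 4 days) in diabetic and 76.2 ± 35.0 CPM in control wounds, but it did not pass the adjustment over all genes (edgeR adjusted p = 0.29). By edgeR 0 of 8 members passed, where 0.0464% of 10766 genes did, 2 members had an unadjusted p under 0.05, and DESeq2 called 1, Bcl2a1a (adjusted p = 0.020). Bcl2a1b was the other one, at 0.68 ± 0.26 (adjusted p = 0.48). Bcl2l11 at 0.47 ± 0.30, Bcl2a1d at 0.44 ± 0.23, Bcl2l1 at 0.34 ± 0.24, Bcl2 at 0.30 ± 0.46, Mcl1 at 0.18 ± 0.30 and Bax at -0.00 ± 0.19 had unadjusted p-values above the threshold. The median over the members was 0.39, against -0.01 over all genes. The levels of the groups overlapped for each member, that is, 0 of 7 members with a mean of at least 10 CPM did not overlap, where 1.08% of 6092 such genes did not.

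Day by day, the counts of each pair of libraries were compared with exact intervals that cover counting error only, which describes those libraries and not the conditions. Bcl2a1a differed by 0.30 (log2; 0.18 to 0.43) on day 1, 1.23 (1.03 to 1.43) on day 3, 1.05 (0.72 to 1.41) on day 5 and 1.36 (1.11 to 1.61) on day 7. Bcl2l11 differed by -0.32 on day 1 and by 0.44, 0.58 and 0.61 on days 3, 5 and 7. Day 1 thus stood apart from the later days for both genes. Without day 1, the day with the smallest difference, Bcl2a1a stood at 1.43 (edgeR adjusted p = 0.042), where 0.152% of 10530 genes passed, and the larger value follows from leaving out that day. Without day 3, 5 or 7 it stood at 1.09, 0.93 and 0.97 (adjusted p = 0.37, 0.55 and 0.97), and without day 3 or day 7 0 of all genes tested passed. Mcl1 differed by -0.37 on day 3, when control wounds were higher, and by 0.25 and 0.25 on the later days. The change over days did not differ between the groups for any member by edgeR, where 0.0% of 10766 genes passed. In that fit 2 members had an unadjusted p under 0.05, Bcl2a1a (0.25 ± 0.11 per day, diabetic minus control) and Bcl2l11 (0.24 ± 0.11), both at an adjusted p of 1, and DESeq2 called 0.

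**Figure D4:**
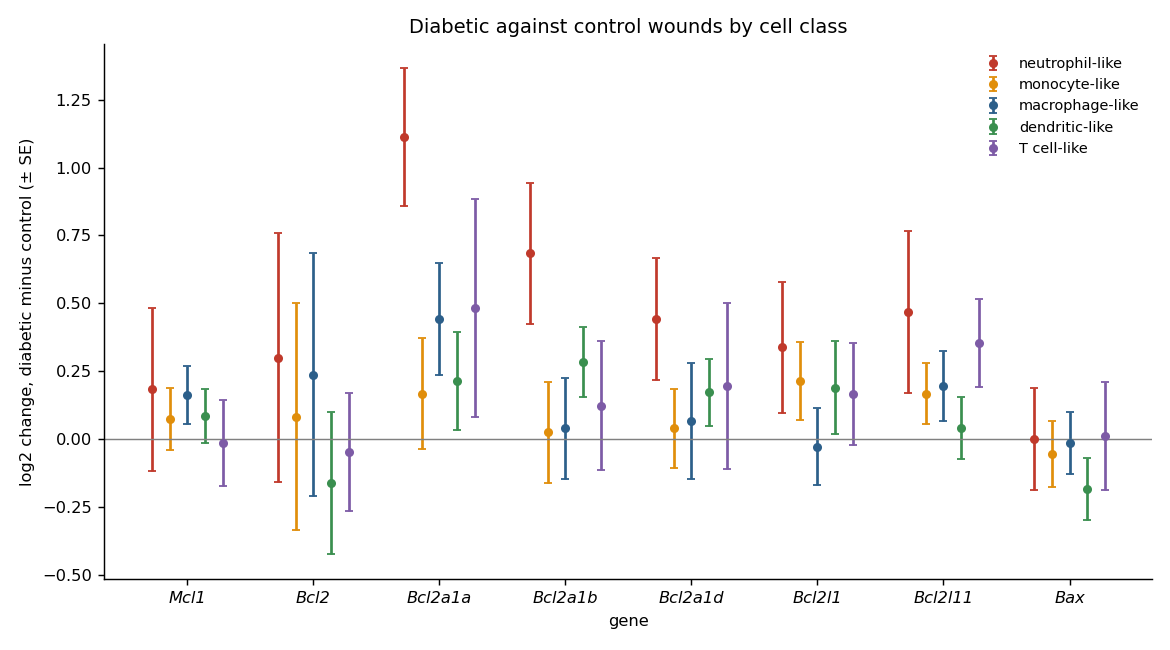
Log2 difference, diabetic minus control (vertical axis, with standard error), of each gene (horizontal axis) in 5 cell classes, each point from a fit over 8 libraries. Bcl2a1a in neutrophil-like cells is the highest point at 1.11, and none of the points passed the adjustment over all genes in edgeR.

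Marker levels in neutrophil-like cells differed between the groups within days. On day 5 the summed macrophage markers stood at 2274 CPM in diabetic and 8012 in control wounds and the neutrophil markers at 25354 and 17279, on day 1 the macrophage markers stood at 509 and 718 and the neutrophil markers at 61771 and 49562. Day 3 went the other way, with macrophage markers at 2985 in diabetic and 2255 in control wounds and neutrophil markers at 31679 and 35566, and on day 7 they stood at 9385 and 11471 and at 16307 and 14726. Their part in the differences of the members was not tested. The mix of clusters differed between the groups. On day 1 it differed mainly in NEU-2-like and NEU-3-like cells, and later NEU-1-like cells held a larger share in control wounds. The groups were therefore compared within clusters. In NEU-1-like cells Bcl2a1a was higher by 0.81 ± 0.21 and Bcl2a1b by 0.61 ± 0.20 (edgeR adjusted p = 0.46 and 0.66). Here 0 of 8 members passed, 2 had an unadjusted p under 0.05, DESeq2 called 0, and 0.0235% of 8527 genes passed. The Bcl2a1b levels of 141, 117, 115 and 123 CPM in diabetic wounds did not overlap those of 91.1, 97.3, 73.4 and 78.7 in control wounds. This held for 1 of 7 members with a mean of at least 10 CPM, where 1.77% of 6217 such genes did not overlap. The counting intervals of the nearest pair did overlap, with 101 to 132 on diabetic day 5 and 87.8 to 108 on control day 3. The control values of Bcl2a1b on days 1 and 5 rest on 56 and 53 UMIs. In NEU-2-like cells Bcl2a1a was higher by 0.97 ± 0.34 (adjusted p = 0.95), with 188, 220, 220 and 170 CPM in diabetic wounds, which did not overlap the 163, 128, 139 and 31.5 of control wounds, again 1 of 7 members, where 1.48% of 5871 genes did not overlap. The control values on days 3, 5 and 7 rest on 61, 24 and 10 UMIs, with 35 and 53 cells on days 5 and 7, and the gap between 170 and 163 CPM is within the counting intervals (147 to 196 and 150 to 177). In NEU-2-like cells Bcl2a1b had means of 239 ± 57.5 in diabetic and 238 ± 52.9 in control wounds (SD, n = 4 days), with higher levels in diabetic wounds on 2 of 4 days. In this cluster 0 of 7 members tested passed, 1 had an unadjusted p under 0.05, DESeq2 called 0, and 0.0% of 7608 genes passed. In NEU-4-like cells, the interferon-response cluster (Rsad2, Ifit1 and Ifit3), the control day 5 library had 11 cells, so day 5 was left out, and 3 of the 7 members tested, the Bcl2a1 copies, had an unadjusted p under 0.05 at 0.86, 0.78 and 0.73. Of those 0 passed in edgeR or DESeq2, and 0.0% of 4830 genes passed. NEU-3-like cells (Ngp, Retnlg and Lcn2) reached 20 cells in both groups on days 1 and 3 only and were not fitted.

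In each of the other classes 0 members passed between the groups in edgeR or DESeq2, with 0 at an unadjusted p under 0.05. The share of all genes that passed was 0.0% of 10247 in monocyte-like, 0.00918% of 10897 in macrophage-like, 0.01% of 9976 in dendritic-like and 0.0% of 8934 in T cell-like cells. The differences of Bcl2a1a were 0.17 ± 0.20, 0.44 ± 0.21, 0.21 ± 0.18 and 0.48 ± 0.40 in that order. Bcl2l11 differed by 0.35 ± 0.16 in T cell-like cells and was higher there on 4 of 4 days. The same held for Bcl2l11 in monocyte-like cells, for Mcl1 in macrophage- and dendritic-like cells and for Bcl2a1b in dendritic-like cells. Whether the difference of Bcl2a1a in neutrophil-like cells exceeds that in other classes was not tested. Over all cells, Bcl2a1a was higher by 0.94 ± 0.27 (edgeR adjusted p = 0.45) and Bax was lower on 4 of 4 days, at -0.11 ± 0.12. On day 7 Bax stood at 214.2 CPM in diabetic and 215.3 in control wounds, a difference within counting error. In the fit over all cells 0 of 8 members passed in edgeR, 1 had an unadjusted p under 0.05, DESeq2 called 0, and 0.0% of 13857 genes passed. Of the genes of the pathway lists, 0 passed between the groups in neutrophil-like cells by edgeR or DESeq2, and 2, both inhibitors, had an unadjusted p under 0.05.

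The share of Bcl2a1a among the UMIs of the 3 copies, a measure chosen after its values were seen, is free of the scaling between libraries. In neutrophil-like cells it was 34.6%, 30.2%, 31.1% and 32.6% in diabetic wounds on days 1, 3, 5 and 7. In control wounds it was 28.8%, 21.9%, 25.8% and 22.1%. The groups did not overlap, with means of 32.1% ± 1.92 (SD, n = 4) and 24.6% ± 3.29, which is given as a description without a test. In NEU-1-like cells alone the shares of the groups overlapped. Bcl2a1a, Bcl2a1b and Bcl2a1d had 53, 53 and 66 UMIs there on control day 5 and 197, 318 and 248 on diabetic day 3. The part of the cluster mix in this share was not tested. In monocyte-like cells the means were 20.2% ± 2.79 and 18.7% ± 1.66, in macrophage-like cells 21.0% ± 3.95 and 16.7% ± 2.83, in dendritic-like cells 16.1% ± 4.09 and 16.2% ± 3.39 and in T cell-like cells 13.9% ± 2.80 and 11.1% ± 2.004. These groups overlapped. The assignment of reads among the near-identical copies enters this share directly, and its part was not tested.

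**Figure D5:**
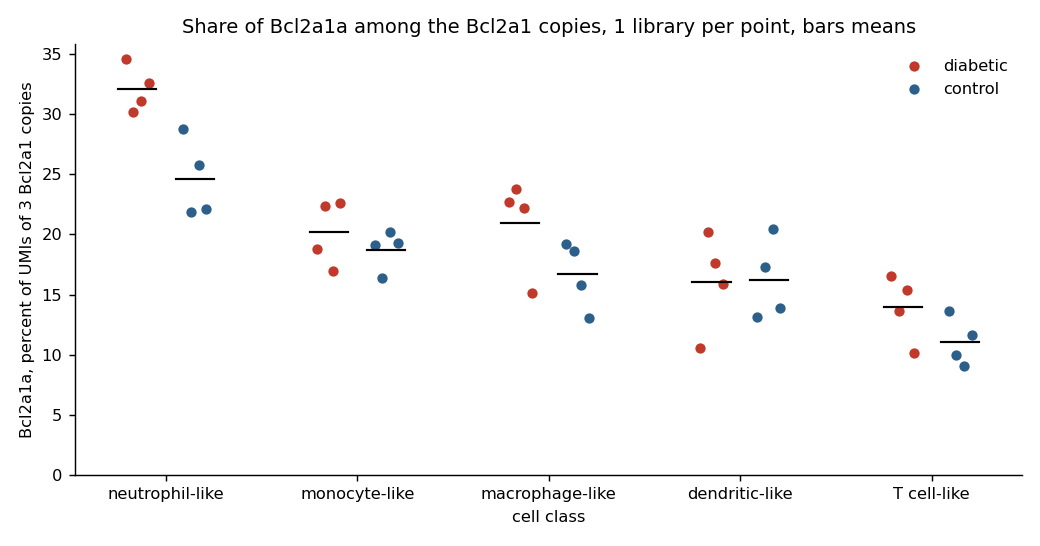
Share of Bcl2a1a among the UMIs of the 3 Bcl2a1 copies in percent (vertical axis) by cell class (horizontal axis), with 1 library per point, diabetic in red, control in blue and group means as bars. In neutrophil-like cells the diabetic libraries lie at 30.2% to 34.6% and the control libraries at 21.9% to 28.8%, and in every other class the groups overlap. In macrophage-like cells the diabetic share is also higher on 4 of 4 days, and in monocyte-, dendritic- and T cell-like cells on 2, 2 and 3.

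Within the neutrophil-like cells the members also differed between clusters, given here as levels without a test. Bcl2a1b was higher in NEU-2-like than in NEU-1-like cells in 8 of 8 libraries, with a median ratio of 2.37, and Bcl2a1d likewise, with a median ratio of 2.18. Bcl2a1a was higher in 7 of 8, with a ratio of 2.36, and the exception was control day 7. Bcl2l11 and Bax, the genes of the opposing proteins, were higher in NEU-2-like cells in 8 of 8 libraries as well, with median ratios of 1.42 and 1.42. Mcl1 was higher in NEU-2-like cells in 1 of 8 libraries, with a median ratio of 0.882, and Bcl2l1 in 6 of 8, with a ratio of 1.14.

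Likeness to other genes was measured as Pearson's r of log2(CPM + 10) over 40 points, 8 libraries in 5 classes, among 3316 genes with a mean of at least 50 CPM. The points share libraries, and differences between the 5 classes enter r, a part that was not tested. Mcl1 was most like Ptafr (r = 0.962), the receptor for platelet-activating factor, Lilrb4 (0.960) and Plek (0.951). Bcl2l11 was most like Cd9 (0.906), Slc7a11 (0.894) and Il1b (0.890). The nearest gene to Bcl2a1b was its copy Bcl2a1a (0.868), followed by Tes (0.795) and Ccnl2 (0.779).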

How the data were processed

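Single-cell RNA libraries were made from sorted CD45+ wound cells, with 8 libraries, 1 for each treatment and day as the sample labels give them. The titles and the methods name CD45+ cells, whereas the source field of the labels reads CD49+. The deposited tables hold raw UMI counts per gene symbol and barcode, which the authors made with fastp (version 0.20.1 in the submitters' processing notes), UMI-tools and STAR. The methods name Ensembl release 92, whose mouse genome is GRCm38, whereas the processing notes list mm9. How reads matching several Bcl2a1 copies were assigned is not given in the sources used here. The series record and the methods differ on the single-cell platform, and the tables do not settle it.

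Cells with more than 200 genes and under 20% mitochondrial UMIs were kept. They were clustered with 2000 variable genes, 10 principal components, 30 neighbours and the Leiden method (leidenalg 0.10.2, resolution 0.8), leaving out 42 genes (the members and the pathway lists), and clusters were named from marker lists. Names are rebuilt and may differ from those of the study. Doublets were kept, and leaving out the highest 5% of doublet scores was an alternative. UMIs were summed per library and class (at least 20 cells) and tested with edgeR 4.0.16 (quasi-likelihood, TMM, filterByExpr, R 4.3.3) with Benjamini-Hochberg adjustment over all genes, with the day or the library as a block, or the day as a number. DESeq2 1.42.0, other scalings and filters, leaving out each day, thinning to 1000 UMIs and cells named singly were alternatives. The procedures were tested on simulated data. Intervals and floors (3 counts) cover counting error only, at 95% and exact, with scipy 1.17.1. Gene positions were taken from the GENCODE annotation of GRCm38 and the upstream stretches from RefSeq, and both can differ from the annotation behind the counts.

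The members, the lists and the tests were chosen with earlier results of these data known. The genes named are the 8 members in every comparison and, of the lists, up to 5 per direction with the largest change past an adjusted p of 0.05, with the exceptions given in the text. For Mcl1, Bcl2a1b and Bcl2l11 the 3 most similar genes are named. A gene of the pathway lists is not reported here.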

Additional observations from a re-analysis of the deposited data

Results flagged for a closer look

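Bcl2l1 in neutrophil-like cells of diabetic wounds stood out on day 7, at 168.9 CPM against 220.2, 223.5 and 228.2 on days 3, 1 and 5. The gap to the nearest of the other days took 0.866 of the range of the group, above the critical value of 0.829 for 4 values. By chance about 1 in 20 such groups would pass this limit.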

How the results depend on the processing

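In the group comparison in neutrophil-like cells, the count of members called, 0 by edgeR, was 1 (Bcl2a1a) with DESeq2 and 1 without the filter on low counts, and 0 to 1 when each day was left out. For the change over days in neutrophil-like cells, the 6 calls became 0 to 6 when each day was left out, 0 with cells named singly, and 1 with library totals, which was Bax, a rise that was not among the 6. Over all cells, the 2 calls became 4 with DESeq2, 0 to 3 when each day was left out, and 1 (Mcl1) with library totals. The counts over all cells are given here without the share of all genes called in the same fits. They therefore say nothing about the members alone. With library totals, chosen after seeing the data, Bax turned to -0.53 against dendritic-like and -0.42 against T cell-like cells, and Bcl2a1d to -0.84 against T cell-like cells. The cause of these shifts was not tested, beyond fewer libraries where days were left out. Of 1580 single values under the alternatives, 1511 stayed on their side of the threshold, 28 passed it newly, 36 no longer passed, 3 changed sign and were called on at least 1 side and 2 levels moved by more than the spread over libraries, and 76 of the 1511, called in neither fit, changed sign. Over all genes, the calls between the groups were 5 by edgeR, 42 by DESeq2 and 143 without the filter in neutrophil-like cells, and 0, 22 and 148 in monocyte-like, 1, 31 and 161 in macrophage-like, 1, 15 and 123 in dendritic-like, 0, 1 and 37 in T cell-like and 0, 87 and 1 over all cells. For the days in neutrophil-like cells, 2260 genes rose and 2105 fell under TMM, against 4801 and 484 with library totals. No paired analysis was possible because all replicates carry the number 1, so replicate numbers pair nothing. The groups were matched by day instead, with the day as a block, and without that block 0 members passed in edgeR in any class, with 1 at an unadjusted p under 0.05 (in NEU-1-like cells). NEU-3-like cells were not fitted, since both groups reached 20 cells on only 2 days, and NEU-4-like cells were fitted over 6 libraries, so that leaving out further days gave no value. Depth limits Bcl2, with 2 to 29 UMIs per library in neutrophil-like cells.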
